A study of Mus musculus with 8 samples.

Results

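The mitochondrial respiratory chain was examined in mouse paw tissue through the genes whose symbols mark them as nuclear-encoded subunits. They were taken by name: symbols that begin with Nduf followed by a, b, c, s or v, the genes Sdha to Sdhd, and symbols that begin with Uqcr, with Cox4 to Cox8 or with Atp5. This rule found 90 of the 22609 gene symbols. Of these, 82 were counted as subunits and placed by symbol: 38 of complex I, 4 of complex II, 8 of complex III, 17 of complex IV and 15 of complex V. The 38 include Ndufa4, later found with complex IV, and its relative Ndufa4l2. All complex I sums, counts and medians below include them. The other 8 symbols share only the first letters. They are the complex I assembly factors Ndufaf1, Ndufaf2, Ndufaf3 and Ndufaf4, the supercomplex factor Cox7a2l, and Cox4nb, Atp5s and Atp5sl, and they are given apart. The tissue came from 4 female and 4 male C57BL/6J mice. Every animal of both sexes had received 0.1 µg of the hormone prolactin (PRL) in the paw once a day for 12 days, so neither sex has a vehicle or untreated group, and the animals' age is not given in the labels. The libraries are called F1 to F4 and M1 to M4 by their replicate numbers.

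The respiratory chain sits in the inner mitochondrial membrane. Complex I takes electrons from NADH and complex II from succinate, ubiquinone passes them to complex III, and cytochrome c carries them to complex IV, which reduces oxygen. Complexes I, III and IV pump protons, and complex V, the ATP synthase, lets them flow back to make ATP. Complex II is encoded wholly in the nucleus, while the others also contain subunits encoded in mitochondrial DNA. Skeletal muscle is rich in mitochondria and carries its own isoforms of several small complex IV subunits. None of the 13 mitochondrially encoded subunit symbols was among the gene symbols used here, so the values below concern the nuclear genes.

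Counts in genes summed to 16753528 to 24993744 per library, and subunit genes took 0.691% (F3) to 1.085% (M2) of them. Levels are counts per 1000000 (CPM) of the library size, corrected by the trimmed mean of M values (TMM). Skin transcript was plentiful, with 11 keratinocyte genes summing to 40550 to 61780 CPM in females and 54500 to 70270 CPM in males, but the libraries held very unequal amounts of skeletal muscle transcript. The fast skeletal muscle score, the mean log2 CPM of 20 muscle genes such as Acta1 and Ckm, was 9.43 in F1, 6.54 in F2, 0.37 in F3 and 7.43 in F4, against 7.07 in M1, 9.83 in M2, 7.76 in M3 and 4.74 in M4. F3 stood apart at the low end, with 0.0679% of its counts in the 32 muscle genes of the fast and slow lists, while F1 and M2 held 2.94% and 3.71%. Of the 6 brown adipocyte genes listed, Ucp1, the defining gene of brown fat, had 4 to 18 counts in each library and Otop1 0.6857 to 1.658 CPM. Cidea had 24.78 to 38.5 CPM, Prdm16 7.548 to 12.34 CPM and Dio2 4.163 to 16.5 CPM. Zic1 ran from 0 CPM in F3 to 9.145 CPM in M2, and the part of brown fat in the subunit levels was not tested. The 8 white adipocyte genes summed to 113.5 to 319.4 CPM in females and 104.4 to 366.2 CPM in males. The 4 Y-linked genes listed were all called lower in females.

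Most subunit genes were well measured, but 10 of the 82 had a mean under 5 CPM. Cox7b2 and Cox8c, known as testis isoforms, were listed at 0 in all 8 libraries. So was Ndufs5, a complex I accessory subunit that every cell with mitochondria uses, and a 0 here cannot be read as absence of the transcript. The files hold alignments that were not unique on a separate line, outside the genes, with 45.2 to 48.7% of the sum of all lines. In GENCODE vM21 transcripts, 31.1% of the 50-base windows of Ndufs5 occurred in another gene, as did 87.4% of those of Atp5g2, 68.5% of those of Atp5l and 53.0% of those of Cox7c. These 4 genes had a mean of at most 1.139 CPM, and they are 4 of the 10 subunit genes with over 25% shared windows. For 47 subunit genes no window was shared. The others of the 10 had means from 9.518 CPM (Ndufb4, 37.0% of windows shared) to 46.71 CPM (Uqcrb, 43.2%). Shares depend on the transcript, since a single transcript per gene was scored. Ndufab1 (mean 2.498 CPM) shared 12.3% of the windows of a transcript of 3479 bases. Atp5g1 (mean 2.834 CPM) shared 11.6% of the windows of a transcript of 4715 bases. Other transcripts of these genes were not scored. Levels of the genes with shared windows remain uncertain, and the part of sharing in the low counts was not tested. The filter on low counts was passed by 78 of the 82 subunit genes, the exceptions being Atp5g2, Ndufs5, Cox7b2 and Cox8c.

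The summed level of the 82 subunit genes was 9889 CPM in F1, 7805 in F2, 6896 in F3 and 7924 in F4, against 8144 CPM in M1, 11410 in M2, 8393 in M3 and 7684 in M4. M2 was the highest library and F3 the lowest, and the other females lay within the range of the males. Complex I genes summed to 2836 ± 370.1 CPM in females and 3079 ± 515.3 CPM in males, where errors here and below are SDs over the n = 4 libraries of a sex. Complex II genes summed to 475.1 ± 119.4 CPM in females and 512.2 ± 146.6 CPM in males. In both complexes the sexes overlapped. Complex III sums were 914.6 ± 127.5 CPM in females and 1024 ± 174.6 CPM in males. Complex IV sums were 1129 ± 172.2 CPM in females and 1275 ± 197.4 CPM in males, and complex V sums 2773 ± 480.9 CPM in females and 3018 ± 664.0 CPM in males. Every complex thus had the lower mean in females by less than the SD of either sex, and in every complex M2 was the highest library and F3 the lowest. Without M2 the female minus male difference was -14.4 CPM for complex I, 29.7 for II, -32.1 for III, -62.0 for IV and 59.7 for V, so that complexes II and V were higher in females. The ratio of M2 to F3 was 1.555 for complex I, 1.967 for complex II, 1.627 for complex III, 1.67 for complex IV and 1.715 for complex V. The complex I ratio includes Ndufa4, with 305.8 CPM in M2 and 240.6 in F3, and Ndufa4l2, with 170.6 CPM in M2 and 201.7 in F3. The rank of complex I among these ratios was not tested without them. In these bulk samples, fewer cells of a type and less RNA per cell cannot be told apart.

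**Figure D1:**
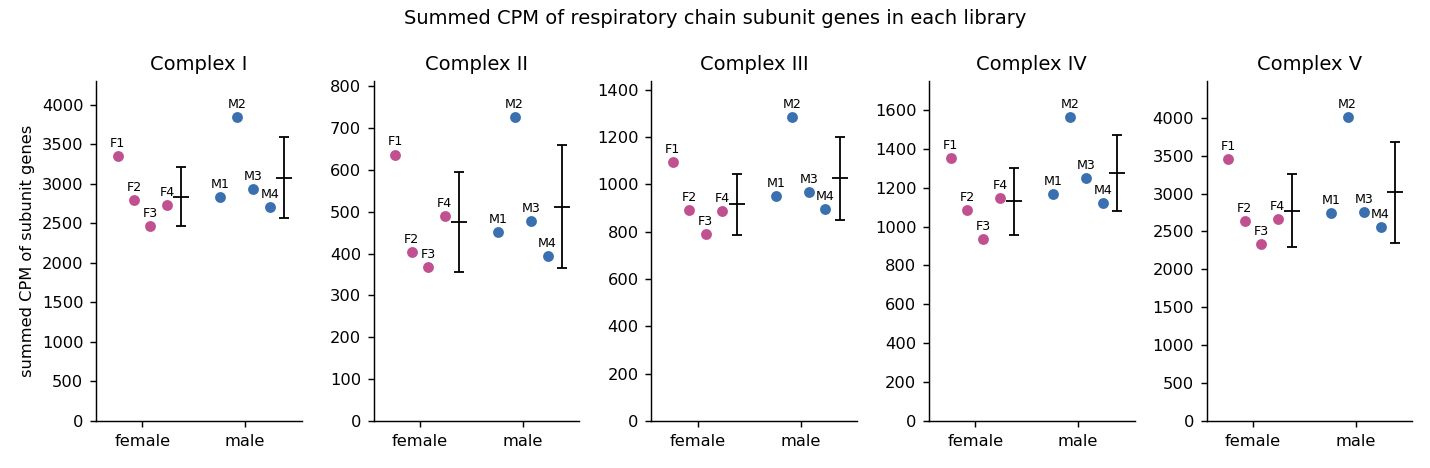
Summed CPM of the subunit genes of each complex in the 4 female and 4 male libraries (points, named by library), with the mean and SD of each sex beside them. M2 is the highest and F3 the lowest library in all 5 complexes, and the sexes overlap in each.

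The same ranking of libraries ran through the single genes. M2 was the highest of the 8 libraries for 68 of the 78 tested subunit genes, or 87.2%, while it was the highest for 17.8% of all 14790 tested genes. F3 was the lowest for 63 subunit genes, or 80.8%, against 21.2% of all tested genes. M2 was highest with F1 second for 56 subunit genes, beside 1568 of the 14790 tested genes. M2 led for 34 of 37 complex I genes, 4 of 4 in complex II, 8 of 8 in complex III, 10 of 15 in complex IV and 12 of 14 in complex V. Apart from 3 muscle isoforms of complex IV, the fold between the highest and lowest library ran from 1.145 for Ndufb3 to 3.341 for the thinly counted Cox7c, with a median of 1.62.

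**Figure D2:**
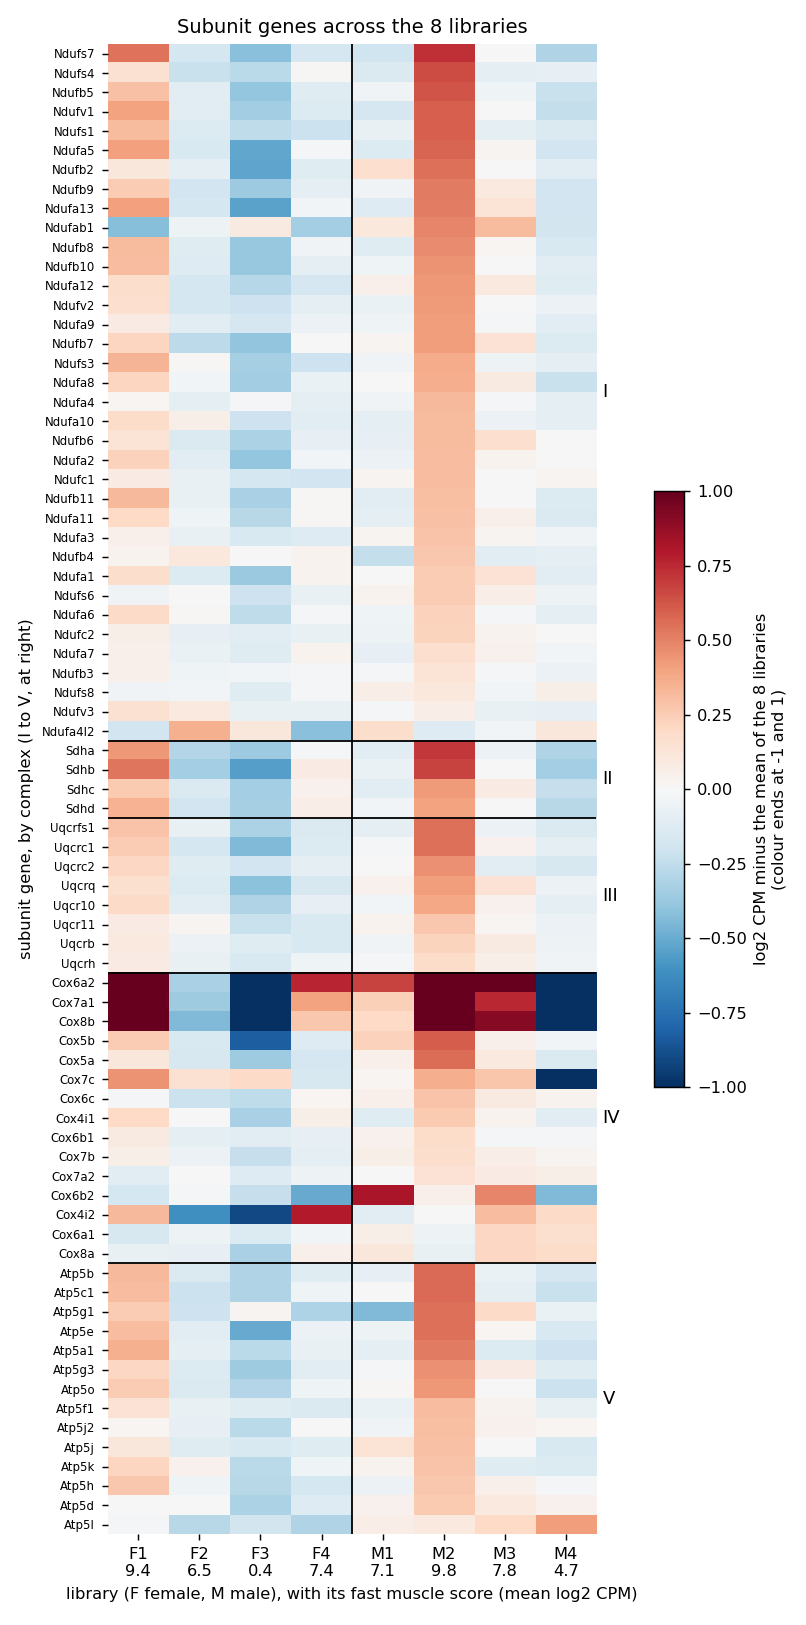
Log2 CPM of the tested subunit genes (all but 1 of complex I) relative to its mean over the 8 libraries (colour), with genes in rows by complex and libraries in columns, females on the left; colour ends at -1 and 1. The M2 and F1 columns are high for most genes and the F3 column is low, with the widest range in Cox6a2, Cox7a1 and Cox8b.

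In complex I, the iron-sulfur subunit Ndufs7, which sits next to the ubiquinone site, varied most by the SD of its log2 CPM over the libraries. It had 96.62 CPM in F1, 58.62 in F2, 49.62 in F3 and 58.89 in F4, against 57.62 CPM in M1, 109.9 in M2, 66.38 in M3 and 53.83 in M4. F1 and M2 lay far above the other libraries, and the sexes overlapped. Ndufb3, an accessory subunit, varied least, from 37.46 to 39.94 CPM in females and from 37.03 to 42.41 CPM in males. Ndufa4, first assigned to complex I and later found with complex IV, had 236.9 ± 8.872 CPM in females and 253.5 ± 35.17 CPM in males, and its male spread came from 305.8 CPM in M2. Ndufa4l2, its relative known to be induced in low oxygen, behaved unlike most members. It had 163.7 CPM in F1, 239.4 in F2, 201.7 in F3 and 139.7 in F4, against 210.9 CPM in M1, 170.6 in M2, 183.5 in M3 and 202.2 in M4. Its highest and lowest values were both in females, and F1 and M2 were among its lower libraries.

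Apart from the 3 muscle isoforms, the median fold between the highest and lowest library was 1.9 over the 4 genes of complex II. It was 1.65 in complex V, 1.62 in complex I, 1.59 in complex III and 1.48 in complex IV. With the muscle isoforms complex IV had 1.88. Sdha, the flavoprotein that oxidises succinate, had 283.0 CPM in F1, 171.0 in F2, 163.1 in F3 and 207.3 in F4, against 193.0 CPM in M1, 341.9 in M2, 201.1 in M3 and 169.5 in M4. Sdhb, the iron-sulfur subunit, had 122.6 CPM in F1, 66.61 in F2, 57.69 in F3 and 89.24 in F4, against 80.46 CPM in M1, 134.8 in M2, 84.7 in M3 and 66.85 in M4. For both genes F1 and M2 were the highest libraries, and the sexes overlapped, with F3 below every male and M2 above every female. The membrane anchor Sdhc had 91.72 ± 16.41 CPM in females and 97.79 ± 20.15 CPM in males.

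In complex III, the core protein Uqcrc1 had 172.8 ± 35.3 CPM in females and 205.0 ± 44.75 CPM in males, and the core protein Uqcrc2 187.7 ± 23.88 CPM in females and 202.6 ± 42.54 CPM in males. The small subunit Uqcrq had 102.4 ± 16.7 CPM in females and 123.5 ± 18.03 CPM in males, and the hinge protein Uqcrh, the least variable of the 8, 121.7 ± 8.223 CPM in females and 129.9 ± 9.091 CPM in males. All 4 overlapped between the sexes. In complex V, the catalytic beta subunit Atp5b had 1167 CPM in F1, 841.9 in F2, 753.9 in F3 and 853.8 in F4, against 877.9 CPM in M1, 1379 in M2, 888.9 in M3 and 826.6 in M4. F1 and M2 again lay well above the other 6 libraries. The 3 genes Atp5g1, Atp5g2 and Atp5g3 encode the same mature c subunit of the rotor ring. Atp5g3 had 183.3 ± 30.16 CPM in females and 211.0 ± 39.28 CPM in males, Atp5g1 2.04 to 4.064 CPM over all libraries, and Atp5g2 at most 19 counts in a library, with windows shared with other genes in the last 2. The peripheral stalk subunit Atp5f1 varied least in complex V, with 115.0 ± 11.09 CPM in females and 123.6 ± 15.97 CPM in males.

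Complex IV held the members with the widest range by far, the muscle isoforms Cox6a2, Cox7a1 and Cox8b. Cox6a2 had 108.9 CPM in F1, 14.41 in F2, 0.2207 in F3 and 30.66 in F4, against 28.91 CPM in M1, 147.5 in M2, 40.31 in M3 and 6.171 in M4. Cox7a1 had 45.78 CPM in F1, 7.39 in F2, 0.618 in F3 and 12.49 in F4, against 11.15 CPM in M1, 65.99 in M2, 15.93 in M3 and 2.057 in M4. Cox8b had 50.67 CPM in F1, 9.007 in F2, 0.8828 in F3 and 14.69 in F4, against 14.03 CPM in M1, 68.18 in M2, 22.96 in M3 and 3.771 in M4. All 3 ordered the libraries as the muscle score did at both ends, with M2 and F1 highest and M4 and F3 lowest. M2 exceeded F3 by 668.5-fold for Cox6a2, where F3 had 5 counts, by 106.8-fold for Cox7a1 and by 77.23-fold for Cox8b.

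The ubiquitous isoforms of the same subunits hardly followed. Cox6a1 had 110.8 CPM in F1, 120.1 in F2, 113.1 in F3 and 122.1 in F4, against 128.9 CPM in M1, 119.6 in M2, 143.0 in M3 and 138.9 in M4. Cox7a2 had 124.8 ± 5.117 CPM in females and 137.8 ± 5.648 CPM in males, and Cox8a 77.62 ± 8.247 CPM in females and 89.91 ± 7.702 CPM in males. M2, the library richest in muscle transcript, was the lowest male for Cox6a1 and Cox8a but the highest library for Cox7a2, at 144.8 CPM, where F3 was the lowest, at 119.6 CPM. Per transcript length, the ratio of Cox6a2 to Cox6a1 was 0.825 in F1, 0.101 in F2, 0.00164 in F3 and 0.211 in F4, against 0.188 in M1, 1.04 in M2, 0.237 in M3 and 0.0373 in M4. The per-length ratio of Cox8b to Cox8a reached 0.978 in F1 and 1.32 in M2, and that of Cox7a1 to Cox7a2 0.63 in F1 and 0.764 in M2. Cox6a2 and Cox8b were thus level with or above their ubiquitous partner in M2 and close to it in F1, and Cox7a1 stayed below its partner in all 8 libraries.

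The mean log2 ratio, female minus male, was -1.44 for Cox6a2 over Cox6a1 (-3.48 ± 3.8 in females and -2.04 ± 1.96 in males), with p = 0.571 in an exact two-sided permutation test (n = 4 each). It was -0.65 for Cox7a1 over Cox7a2 (exact permutation p = 0.657) and -0.73 for Cox8b over Cox8a (exact permutation p = 0.6), and all 3 had p = 0.657 when adjusted over the 3 ratios. The smallest p that the 70 splits allow is 0.0286. Each difference was smaller than the spread within either sex. Without F3 the differences were 0.35, 0.5 and 0.29, higher in females, and without M2 that of Cox7a1 over Cox7a2 was 0.13.

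**Figure D3:**
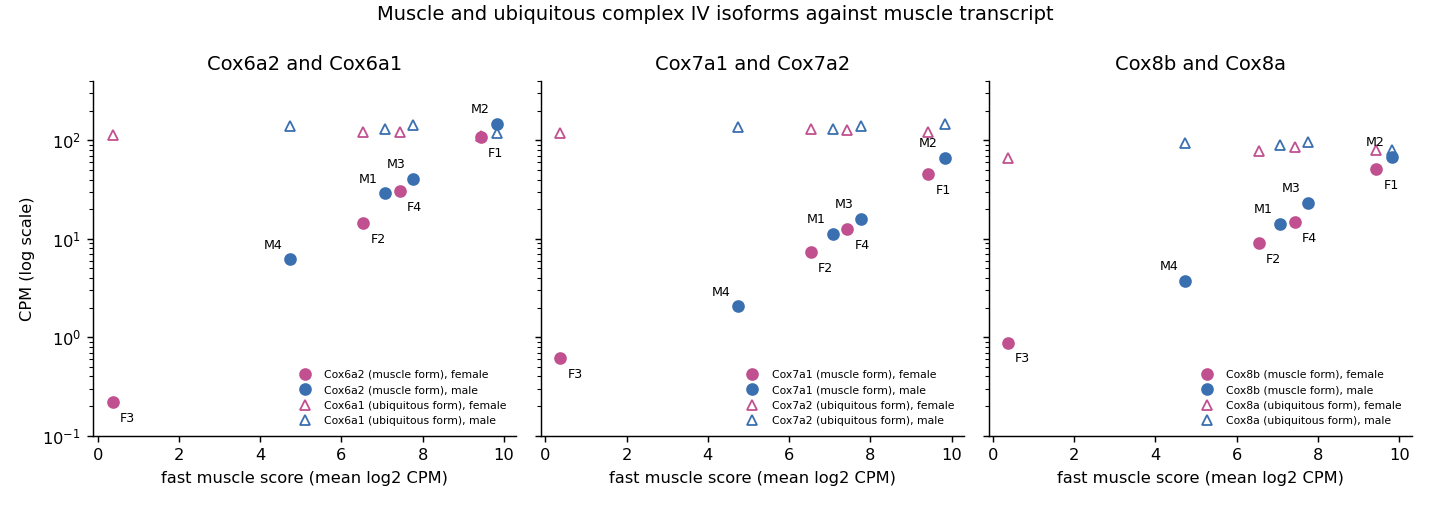
CPM (log axis) of the muscle isoform and the ubiquitous isoform of 3 complex IV subunits in each library, plotted against the fast skeletal muscle score (mean log2 CPM of 20 genes), with females and males as separate markers. Cox6a2, Cox7a1 and Cox8b climb from under 1 CPM in F3 to between 65.99 and 147.5 CPM in M2, while Cox6a1, Cox7a2 and Cox8a stay within a narrow band.

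The other isoform pairs of complex IV were one-sided. Cox4i1, the general form of the largest nuclear-encoded subunit, had 283.4 ± 41.55 CPM in females and 289.2 ± 36.97 CPM in males, and Cox4i2, known from lung and from low oxygen, 2.065 ± 1.102 CPM in females and 2.132 ± 0.2749 CPM in males. Cox6b1 had 129.6 ± 8.556 CPM in females and 139.1 ± 9.214 CPM in males, and the testis isoform Cox6b2 0.7997 ± 0.1108 CPM in females and 1.15 ± 0.4156 CPM in males. Cox7b had 118.0 ± 9.745 CPM in females and 132.0 ± 6.195 CPM in males, and its testis isoform Cox7b2 was listed at 0. In these pairs the general isoform made up nearly all of the counts in every library.

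Promoters are shown for the muscle isoforms Cox7a1 and Cox8b, the ubiquitous isoforms Cox8a and Cox6a1, and the complex II gene Sdhd, which is not an isoform. This is a selection, and isoforms were not compared by a test. Cox6a2 had no promoter in the table used, and Cox7a2 is not shown. The promoters come from RefSeq for GRCm38.p6 and span 250 bases before to 50 after the gene's start, read 5′ to 3′ on the gene's strand. Cox7a1 lies at chr7:30183921-30184220 on the plus strand, and Cox8b at chr7:140900397-140900696 on the minus strand. Capitals mark the E-box CANNTG, the letters that muscle regulatory factors such as MyoD bind.
Cox7a1: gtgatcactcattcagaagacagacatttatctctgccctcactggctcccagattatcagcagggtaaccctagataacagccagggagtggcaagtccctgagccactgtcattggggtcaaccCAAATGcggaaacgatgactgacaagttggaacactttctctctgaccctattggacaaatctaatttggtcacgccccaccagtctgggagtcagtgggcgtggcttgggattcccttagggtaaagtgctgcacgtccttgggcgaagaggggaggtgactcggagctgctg
Cox8b: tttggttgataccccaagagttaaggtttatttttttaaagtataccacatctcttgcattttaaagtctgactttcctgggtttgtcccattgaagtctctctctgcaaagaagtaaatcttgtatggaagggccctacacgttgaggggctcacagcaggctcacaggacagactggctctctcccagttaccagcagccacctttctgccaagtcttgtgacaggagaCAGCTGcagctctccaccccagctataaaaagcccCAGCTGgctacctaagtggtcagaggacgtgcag
Cox7a1 held 1 E-box and Cox8b 2, and 69% of all protein-coding windows of the table held at least 1. Neither window matched the letters searched for the nuclear respiratory factor NRF1, the ETS factor GABP, the oestrogen-related receptors (ERR), YY1 or MEF2. Most windows of subunit genes lacked each of these as well. Of 72 such windows, 27.8% held the NRF1 core, 13.9% the YY1 letters, 6.94% the ETS letters, 2.78% the ERR letters and 0% MEF2. In the ubiquitous isoform Cox8a, at chr19:7217567-7217866 on the minus strand, capitals mark the ETS letters CCGGAAGT on either strand. In Cox6a1, at chr5:115348909-115349208 on the minus strand, they mark the core of the NRF1 motif, GCGC and GCGC with any 2 bases between, and in the complex II anchor Sdhd, at chr9:50603800-50604099 on the minus strand, the NRF1 core and then the ERR letters TCAAGGTCA, found on the opposite strand.
Cox8a: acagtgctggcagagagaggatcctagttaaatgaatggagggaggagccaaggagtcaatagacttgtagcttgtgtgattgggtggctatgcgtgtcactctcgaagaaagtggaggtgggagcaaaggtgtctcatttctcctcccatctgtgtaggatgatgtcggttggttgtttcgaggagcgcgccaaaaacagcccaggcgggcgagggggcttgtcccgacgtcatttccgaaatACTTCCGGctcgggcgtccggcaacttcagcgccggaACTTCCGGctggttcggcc
Cox6a1: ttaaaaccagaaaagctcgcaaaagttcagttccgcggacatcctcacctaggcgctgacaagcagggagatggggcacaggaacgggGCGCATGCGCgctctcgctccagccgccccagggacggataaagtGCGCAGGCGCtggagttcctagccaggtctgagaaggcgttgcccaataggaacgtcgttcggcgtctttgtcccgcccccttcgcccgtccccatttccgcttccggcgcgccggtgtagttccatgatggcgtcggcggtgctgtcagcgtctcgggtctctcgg
Sdhd: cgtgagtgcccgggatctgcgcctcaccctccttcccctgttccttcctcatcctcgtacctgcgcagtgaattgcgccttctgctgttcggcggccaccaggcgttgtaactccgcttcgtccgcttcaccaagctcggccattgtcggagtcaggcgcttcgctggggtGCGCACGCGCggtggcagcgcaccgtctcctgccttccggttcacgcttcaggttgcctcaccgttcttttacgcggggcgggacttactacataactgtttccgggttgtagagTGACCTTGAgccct
Cox8a held 2 ETS matches and, left in lower case, 1 E-box, as many as Cox7a1. Cox6a1 held 2 NRF1 cores and no E-box, while Sdhd held 1 match of each of its motifs. Both strands were searched, and a match in these windows is a description of the letters only.

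Each subunit gene was then related to the fast muscle score in a model with sex. With edgeR's quasi-likelihood test and Benjamini-Hochberg adjustment over all genes, 19 of 78 subunit genes rose with the score, or 24.4%, beside 4.45% of all tested genes, and none fell, beside 0.73%. They were 9 genes of complex I, 3 of complex II, 1 of complex III, 5 of complex IV and 1 of complex V. The slope was above 0 for 74 subunit genes, with a median of 0.0593 log2 units per unit of the score, against 0.00344 over all tested genes. Cox6a2 rose by 0.94 log2 units per unit (SE 0.024, edgeR adjusted p = 1.88e-07), Cox7a1 by 0.80 (SE 0.058, edgeR adjusted p = 9.49e-05) and Cox8b by 0.71 (SE 0.045, edgeR adjusted p = 2.97e-05). The 20 genes of the score had slopes of 0.758 to 1.58 with a median of 1.01. The score is their own mean, so these slopes centre near 1 by construction. Cox6a2 and Cox7a1 lay within their range and Cox8b just below it.

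The other 16 genes that rose did so with slopes of 0.061 to 0.127. The steepest were Sdhb at 0.13 (SE 0.027), the complex IV subunit Cox5b at 0.11 (SE 0.018), the complex I accessory subunits Ndufa5 at 0.11 (SE 0.021) and Ndufa13 at 0.10 (SE 0.019), and the complex V epsilon subunit Atp5e at 0.09 (SE 0.018). The rest were Sdhc, Sdhd, Ndufa1, Ndufa2, Ndufa8, Ndufb2, Ndufb7, Ndufb8, Ndufb11, Uqcrq and Cox4i1. Slopes below 0, none of them called, belonged to Ndufa4l2, Atp5l, Ndufab1 and Cox6a1. The muscle isoforms passed the test under every alternative that used the score, but the number of genes called did not hold. It was 3 without F3 and M2, beside 2.23% of all tested genes. Leaving out 1 library gave 3 genes without F1 (1.78% of all genes), 29 without F2 (9.6%), 27 without F3 (6.51%) and 10 without F4 (3.65%). It gave 7 without M1 (2.92%), 5 without M2 (2.75%), 7 without M3 (2.88%) and 4 without M4 (2.29%). The median slope of the subunit genes ran from 0.0414 without M2 to 0.0976 without F3, and was 0.0665 without both.

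The score is a mean of logs and spreads out libraries with little muscle, so the share of all counts taken by the 32 muscle genes was also used in its place, a choice made after seeing the data. With edgeR's test, 42 of 78 subunit genes rose with this share, beside 7.35% of all tested genes, and none fell. They were 23 of 37 in complex I, 4 of 4 in complex II, 5 of 8 in complex III, 3 of 15 in complex IV and 7 of 14 in complex V. Of the muscle genes that make up the share, 0 of 20 fast and 2 of 12 slow genes were called with it. Outside the muscle isoforms, the steepest subunit genes were Ndufs7 and Sdhb, both at 0.304 log2 units per percent of counts (SE 0.0233 and 0.0364). Sdha came next at 0.281 (SE 0.0235). Within complex IV, Cox5a rose at 0.169 (SE 0.0231), Cox7a1 at 1.18 (SE 0.261) and Cox8b at 1.07 (SE 0.254), and Cox6a2 did not pass the test at 1.2 (SE 0.341, edgeR adjusted p = 0.0816). The slopes of the ubiquitous isoforms were -0.0469 for Cox6a1 (SE 0.0253), 0.0146 for Cox7a2 (SE 0.0233) and -0.0267 for Cox8a (SE 0.0398), and none passed the test. Without M2 the test called 5 subunit genes, beside 1.21% of all tested genes, so the count rests on that library. The median slope of the subunit genes did not, at 0.141 without M2 and 0.142 with all libraries.

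**Figure D4:**
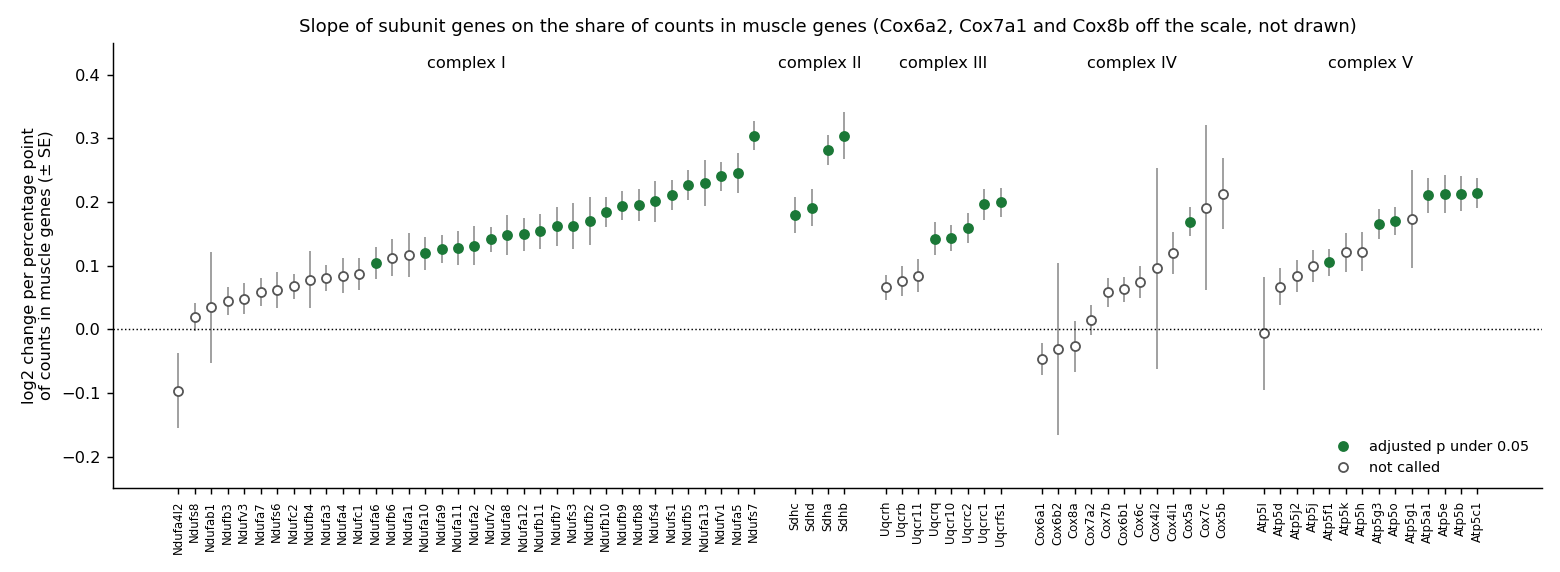
Slope of the tested subunit genes on the share of counts in 32 muscle genes (log2 change per percentage point of counts, bars ± SE), by complex and ordered by slope, with filled points for genes past the edgeR threshold. Cox6a2, Cox7a1 and Cox8b lie above 1 and are not drawn, nor is 1 gene of complex I, complex II has all 4 genes called, and the 5 genes below 0, none called, are Ndufa4l2, Cox6a1, Cox6b2, Cox8a and Atp5l.

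Between the sexes no subunit gene passed the test. With edgeR's quasi-likelihood test, 0 of 78 had an adjusted p under 0.05, beside 0.0947% of all tested genes (14 of 14790), and the smallest adjusted p was 0.733. DESeq2 and limma-voom called none of them either. At an unadjusted p under 0.05 there were 4, Cox6c, Cox6a1, Cox7a2 and Atp5d, all lower in females, beside 6.53% of all genes in either direction and 2.45% in that direction. DESeq2 had 6 at that unadjusted level and limma-voom 3. The share of all tested genes at that level was not counted for these tools, so their numbers have no background beside them. After adjustment DESeq2 called 112 of 14781 genes and limma-voom 16 of 14790. Female and male libraries did not overlap for 3 subunit genes, Cox6c, Atp5d and the thinly counted Atp5l, beside 4.73% of all tested genes.

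Cox6c, a small complex IV subunit, had 108.0 CPM in F1, 94.23 in F2, 91.55 in F3 and 110.4 in F4, against 113.3 CPM in M1, 133.4 in M2, 116.1 in M3 and 111.9 in M4. The highest female lay just under the lowest male, and females differed from males by -0.23 log2 units (SE 0.091, edgeR adjusted p = 0.733). Atp5d, the delta subunit in the central stalk of the ATP synthase, had 179.4 CPM in F1, 178.7 in F2, 143.5 in F3 and 163.6 in F4, against 184.4 CPM in M1, 214.0 in M2, 191.4 in M3 and 183.9 in M4. Here too every male lay above every female, with F1 and F2 close under the lowest males, and the fold change was -0.22 on the log2 scale (SE 0.095, edgeR adjusted p = 0.761). For Cox6a1 it was -0.19 (SE 0.076, edgeR adjusted p = 0.749) and for Cox7a2 -0.14 (SE 0.062, edgeR adjusted p = 0.761), with overlapping sexes. Atp5l, subunit g, had 16 to 20 counts in females and 19 to 26 counts in males.

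The direction was shared widely and rested on few libraries. The fold change was below 0 for 75 of 78 subunit genes, or 96.2%, against 47.3% of all tested genes, with a median of -0.139 log2 units against 0.01. By complex the median was -0.136 for I, -0.11 for II, -0.136 for III, -0.212 for IV and -0.14 for V. Those above 0 were Ndufv3, Ndufb4 and Cox7c. Members share the libraries and, with them, any library that is high or low for the whole list. Without M2 the median was -0.017 with 45 genes below 0, without F3 it was -0.081 with 64, and without both it was 0.021 with 32, where all tested genes had a median of 0.027. Without F1, the female library richest in muscle transcript, it was -0.243 with 74 below 0. With the fast muscle score as a covariate it was -0.058 with 57 below 0, and -0.11 with 70 when F3 was also left out. It was -0.084 with 67 below 0 under the slow muscle score and -0.09 with 69 under the share of muscle counts. Of the 20 fast muscle genes 18 lay below 0, with a median of -0.447 and none called, and all 20 were lowest in F3. The slow muscle list had 6 of 12 genes below 0, with a median of -0.00115 and none called. Of the 11 keratinocyte genes 8 lay below 0, with a median of -0.106 and none called. The part of these lists in the result was not tested.

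**Figure D5:**
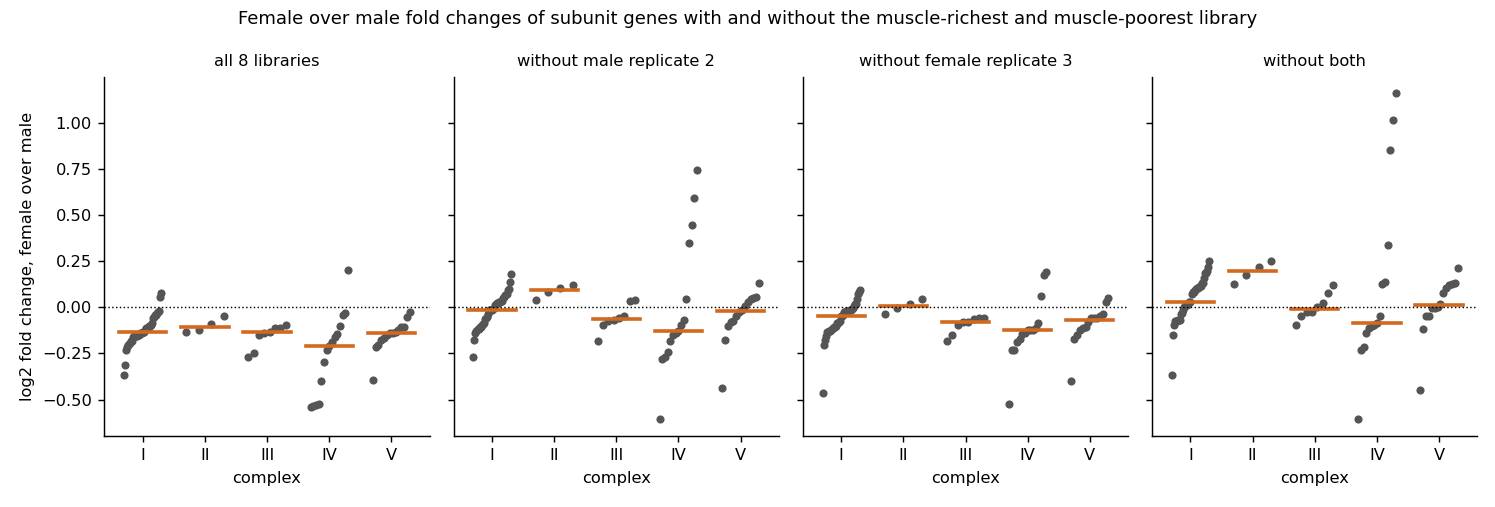
Log2 fold change of each tested subunit gene, female over male (points), by complex with the median as a bar, for all 8 libraries, without M2, without F3 and without both. The median over all subunit genes is -0.139 with all libraries, -0.017 without M2, -0.081 without F3 and 0.021 without both, and no gene passed the edgeR test in any panel.

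The 8 symbols that are not subunits served as neighbours by name. None was called between the sexes or with the score, 5 of 8 lay below 0 in females over males with a median of -0.0615, and none was called with the share of muscle counts. Cox7a2l had 67.41 ± 5.338 CPM in females and 63.11 ± 2.16 CPM in males, and Ndufaf1 15.4 ± 1.421 CPM in females and 17.49 ± 1.081 CPM in males. M2 was the highest library for 4 of the 8 and F3 the lowest for none. Of the 26 further assembly factors measured, such as Cox11, Cox19 and Sco1, none was called between the sexes with edgeR. At an unadjusted p under 0.05 there were 2 of the 26, beside 6.53% of all tested genes. They went opposite ways, Cox19 at -0.24 log2 (SE 0.085) and Sco1 at 0.23 log2 (SE 0.099). None was called with the score, and 5 of the 26 were called with the share of muscle counts, beside 7.35% of all tested genes.

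Genes that feed the chain or carry its products varied in part with it. Among 16 electron carriers and nucleotide carriers, 2 rose with the fast muscle score in edgeR's test, beside 4.45% of all tested genes, and 8 with the share of muscle counts, beside 7.35%. Slc25a4, the ADP/ATP exchanger of heart and muscle, had 679.3 CPM in F1, 186.9 in F2, 94.68 in F3 and 292.8 in F4, against 245.4 CPM in M1, 927.5 in M2, 333.5 in M3 and 148.6 in M4. Its order of libraries was that of Cox6a2, with a slope of 0.34 (SE 0.056, edgeR adjusted p = 0.0141). Vdac3, an outer membrane channel, had a slope of 0.12 (SE 0.024, edgeR adjusted p = 0.0292). Of 14 tricarboxylic acid cycle genes, none was called with the score and 12 were called with the share of muscle counts, beside 7.35% of all tested genes, and M2 was the highest library for 12 of the 14. For the 15 tested beta-oxidation genes and the 15 regulators of mitochondrial genes, none was called with the score and 3 of each list with the share, beside the same 7.35%. Between the sexes edgeR called no gene of these 4 lists. At an unadjusted p under 0.05 there were 2 genes in all 4 lists together, beside 6.53% of all tested genes. They were Pdss1, which makes the ubiquinone tail (-0.55 log2, SE 0.184, edgeR adjusted p = 0.657), and Cpt2, which admits fatty acids to beta-oxidation (-0.49 log2, SE 0.171, edgeR adjusted p = 0.674).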

How the data were processed

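Libraries were made from about 500 ng of total RNA with a stranded kit that selects poly(A) RNA, and single-end reads of 50 bases were sequenced, per the labels' protocols. The reads were processed with TopHat2 and HTSeq after bcl2fastq, on build mm9, per the submitters' processing notes. For tool versions, the gene annotation and any use of strand in counting, nothing was given in the sources used here. As raw data the authors deposited whole-number counts per gene symbol, 1 file per library. Lines that name no gene were left out of library sizes and tests.

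Counts were analysed with edgeR 4.0.16 in R 4.3.3. Of 22609 genes, 14790 passed filterByExpr. Libraries were scaled by TMM, and female was compared with male by the robust quasi-likelihood test (glmQLFit, glmQLFTest) with Benjamini-Hochberg adjustment over all tested genes and a threshold of 0.05. The slope on the fast muscle score was fitted with sex as a term. Isoform log2 ratios were taken between counts plus 0.5. The scripts were tested on simulated data. The members and gene lists were chosen with earlier results of these data known, and no list was tested as a set. Genes named with values were, for each complex, the 2 of smallest p between the sexes, the one of highest mean CPM and the most and least variable, then the isoform pairs and called members; others were named after their values were seen. DESeq2 1.42.0, limma 3.58.1, other scalings and filters, covariates, a replicate block and leaving out libraries were the alternatives. Replicate libraries of 1 sex differed by a chi-square per degree of freedom of at least 13.2 over genes with at least 20 counts, so each was used as its own replicate. The design text counts 4 animals of each sex but does not tie each library to 1 animal, so p-values measure the spread between these libraries. Coordinates and promoters are those of the RefSeq table for GRCm38.p6, since no mm9 genome was used here. Shared windows were counted in GENCODE vM21 on both strands. Values of 1 complex I gene are not reported here, although it is counted in the totals.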

Additional observations from a re-analysis of the deposited data

Results flagged for a closer look

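In groups of 4, a library was marked when its gap to the nearest other library, as a share of the group's whole range, exceeded Dixon's critical value. Chance marks about 1 in 20 independent groups, and 5 of 78 comparisons were marked here. The comparisons are not independent, since they reuse the same libraries and the complex V sum contains Atp5b. Some genes were also chosen for a large SD or a high CPM, so the 5 of 78 cannot be judged against that rate. In males, M2 stood above the other males for the complex I accessory subunit Ndufc1, at 5.37 log2 CPM with the others at 5.07 to 5.09. It did so for Ndufa4 as well, at 8.26 with the others at 7.84 to 7.91, and for the catalytic subunit Atp5b, at 10.43 with the others at 9.69 to 9.8. The sum over complex V was 11.97 on the log2 CPM scale in M2, with the other males at 11.32 to 11.43. In females, F1 stood above the others for Cox6b1, at 7.15 log2 CPM with the others at 6.96 to 6.98. M2 and F1 were the libraries with the highest share of muscle counts, 3.71% and 2.94%, and the part of muscle transcript in these values was not tested.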

How the results depend on the processing

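No alternative called a subunit gene between the sexes. The number of subunit genes that rose with the fast muscle score, 19 as reported, beside 4.45% of all tested genes, was 12 with DESeq2's size factors in edgeR (4.04% of all genes), 12 with library sizes that leave out muscle genes (4.13%), 29 with no sex term (5.18%), 3 without F3 and M2 (2.23%), 42 with the share of muscle counts in place of the score (7.35%) and 5 with that share and M2 left out (1.21%). Leaving out 1 library gave 3 to 29. Same-numbered libraries were not alike in expression: deviations of same-numbered females and males correlated at -0.308, -0.168, -0.0911 and -0.271, and no library correlated best with its own number. Such correlations cannot show whether same-numbered libraries were handled as pairs. With the number as a replicate block, 3 genes rose with the score (1.56% of all genes), 0 were called between the sexes and the median female over male was -0.135. With total counts and no TMM, the fold change female over male turned to 0.02 for Ndufb3, 0.01 for Cox4i1 and 0 for Cox4i2. With the fast muscle score as a covariate it was 0.04 for Ndufs7, 0.02 for Sdhc, 0.02 for Sdha, 0.05 for Sdhb, 0.05 for Cox4i1, 0.04 for Cox4i2 and 0.07 for Cox7a1. With the slow muscle score it was 0.03 for Cox4i1, and with the share of muscle counts 0.01. With the fast score and F3 left out it was 0.03 for Cox4i1 and 0.17 for Cox4i2. Without F3 and M2 it was 0.25 for Ndufs7, 0.01 for Ndufb3, 0.13 for Sdhc, 0.22 for Sdha, 0.25 for Sdhb, 0 for Uqcrc1, 0.08 for Uqcrc2, 0.14 for Cox4i1, 1.02 for Cox6a2, 0.13 for Atp5b, 0.13 for Cox4i2, 1.16 for Cox7a1 and 0.85 for Cox8b. Leaving out 1 library gave ranges that cross 0 for 14 named genes: -0.37 to 0.14 for Ndufs7, -0.04 to 0.01 for Ndufb3, -0.19 to 0.07 for Ndufa4l2, -0.21 to 0.04 for Sdhc, -0.33 to 0.12 for Sdha, -0.37 to 0.1 for Sdhb, -0.21 to 0.03 for Uqcrc2, -0.11 to 0.06 for Cox4i1, -0.43 to 0.17 for Cox4i2, -1.89 to 0.59 for Cox6a2, -1.8 to 0.74 for Cox7a1, -1.74 to 0.44 for Cox8b, -0.29 to 0.05 for Atp5b and -0.29 to 0.03 for Atp5g1. None of these values passed the edgeR test, and the cause was not tested. The isoform differences ran from -2.6 to 0.35 for Cox6a2 over Cox6a1, from -1.55 to 0.5 for Cox7a1 over Cox7a2 and from -1.56 to 0.29 for Cox8b over Cox8a. The share of muscle counts was chosen after seeing the data. Depth limits Cox7c, Atp5l and Atp5g2, with at most 28 counts in a library.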

Other observations

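Of the 82 subunit genes, 67 had a promoter in the RefSeq table, with 72 windows of 300 bases in all. Letters of factors known to act on mitochondrial genes were counted in them on both strands, beside the windows of all 21263 protein-coding promoters of the table. The core of the NRF1 motif (GCGC and GCGC with any 2 bases between) lay in 20 of the 72 windows, or 27.8%, against 8.57% of all windows. The YY1 letters AAGATGGC lay in 10, or 13.9%, against 3.05%. The ERR letters TCAAGGTCA lay in 2, or 2.78%, against 0.334%, and the ETS letters CCGGAAGT in 5, or 6.94%, against 5.15%. The E-box CANNTG lay in 49, or 68.1%, against 69% of all windows, and the MEF2 consensus in none, against 2.74%. These are counts of letters in short windows, with no test.

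Among the regulators, Ppargc1a, a coactivator of mitochondrial genes, had 10.84 CPM in F1, 5.774 in F2, 4.767 in F3 and 5.052 in F4, against 5.324 CPM in M1, 14.39 in M2, 5.672 in M3 and 5.045 in M4. F1 and M2 stood above the other 6 libraries, while its slope on the fast muscle score, 0.15 log2 units per unit (SE 0.054), did not pass edgeR's test at an adjusted p of 0.142. Tfam, which packs mitochondrial DNA and starts its transcription, ran from 34.39 to 38.88 CPM in females and from 35.45 to 43.0 CPM in males, and Nrf1 from 33.19 to 38.06 CPM in females and from 33.21 to 36.54 CPM in males. These 3 genes were named after their values were seen.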
